A study of Mus musculus with 8 samples.

Results

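The libraries described here are the 4 parental organoid lines of a mouse study, SNU-6621-TO, SNU-6622-TO, SNU-6624-TO and SNU-6625-TO, which carry the treatment label control. They are 4 of the 8 libraries of the series and were chosen by their labels. The cell type is given as MASH-related HCC organoid, and the genotype of all 4 as WT. MASH is metabolic dysfunction-associated steatohepatitis, a fatty and inflamed liver disease, and HCC is hepatocellular carcinoma, the liver cancer that carries hepatocyte features. The other 4 libraries, lenvatinib-treated or lenvatinib-resistant derivatives, were not used, and no treatment comparison was made. Each line has 1 library, and nothing in the labels says whether the lines came from separate animals, so no test with replicates within a line is possible and every SD below is the spread over 4 libraries. Age, strain, diet and tumour source are not given in the labels.

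Organoids are small three-dimensional cultures grown from tissue or tumour cells. The epithelium of the liver consists of hepatocytes, which make plasma proteins, urea and bile acids, and cholangiocytes, which line the bile ducts. Both come from a common embryonic precursor, and their identities are held by overlapping sets of transcription factors. Hepatocytes are known for Hnf4a, Foxa factors, Cebpa and Prox1, and duct cells for Sox9, Sox4, Onecut factors and the keratins Krt7 and Krt19. Cdx2 is the factor known for intestinal identity and is not a normal liver gene.

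Levels are given as CPM, counts scaled to the total of the library (counts per 1e6). CPM ranks genes by the counts they take, and TPM, which also divides by exon length, is used to compare the levels of single genes. Values for single lines follow the order SNU-6621-TO, SNU-6622-TO, SNU-6624-TO, SNU-6625-TO. The libraries held 49011663 to 60394231 counts, and 20167 to 20867 genes had at least 1 count. A gene at 0 is limited by depth to under 3 counts, or 0.0497 to 0.0612 CPM depending on the line. A gene was taken as present in every line when it reached 10 CPM in each of the 4 libraries, which is at least 490.1 counts. By this threshold 8718 of 45777 listed genes were present in every line. They made up 36.1% of the 24129 genes with a count in any line, and 8468 of 21949 protein-coding genes, or 38.6%, were among them. These 8718 genes held 94.9% to 97.0% of the counts of each library. SNU-6621-TO stood apart from the other lines: of 815 genes present in 1 line alone, 504 were present in it. The Pearson correlation of log2 CPM across the 8718 genes was 0.890 to 0.906 for the pairs with SNU-6621-TO and 0.965 to 0.974 for the other pairs. These correlations describe genes that share a library, and genes are not independent replicates. Without SNU-6621-TO, 8935 genes were present in every remaining line, and with another line left out 8792 to 8831 were.

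The most abundant messages were mitochondrial transcripts, translation factors, glycolysis enzymes and the keratins of simple epithelium. COX1, the mitochondrially encoded subunit 1 of cytochrome c oxidase (MT:5328-6872, GRCm38), had 34646, 37341, 39679.5 and 34882 CPM and took 3.66% ± 0.237 (SD, n = 4) of all counts. The 4 lines lay close together for it, with a highest-to-lowest ratio of 1.15. The first nuclear gene was Eef1a1, the elongation factor that brings aminoacyl-tRNA to the ribosome, at 9262, 9689.9, 11652 and 9995 CPM. Eef2, which moves the ribosome along the message, had 4176 CPM ± 629 (SD, n = 4). The glycolysis enzymes Pkm (pyruvate kinase), Aldoa (aldolase) and Ldha (lactate dehydrogenase) had 3119.6 CPM ± 766 (SD, n = 4), 2749 CPM ± 407 (SD, n = 4) and 1956 CPM ± 231 (SD, n = 4).

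By class, the 37 mitochondrially encoded genes took 8.0% ± 0.686 (SD, n = 4) of the counts and the 88 ribosomal protein genes 4.90% ± 0.627 (SD, n = 4), with 10 and 19 members among the 100 genes of highest CPM. Keratins took 1.29% ± 0.108 (SD, n = 4), glycolysis genes 1.66% ± 0.274 (SD, n = 4) and the small proline-rich genes 0.530% ± 0.259 (SD, n = 4). These classes were drawn up after the values were seen. The 20 most abundant genes held 11.9% ± 0.772 (SD, n = 4) of the counts and the 1000 most abundant 52.6% ± 1.58 (SD, n = 4).

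**Figure D1:**
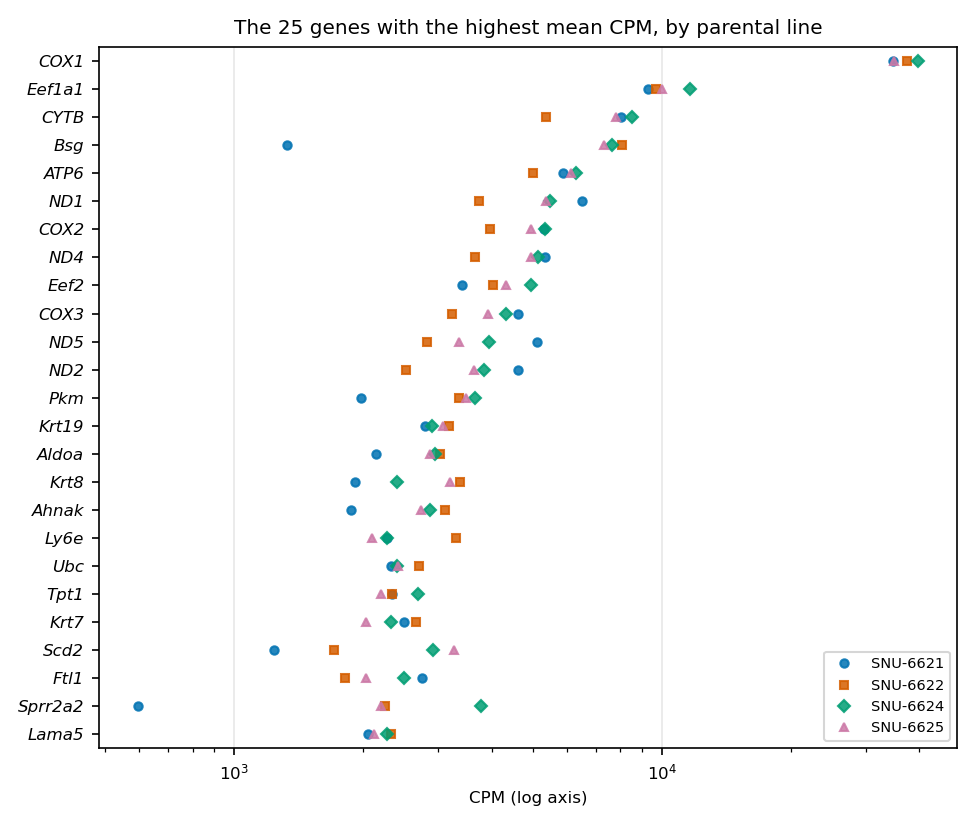
The 25 genes of highest mean CPM in the parental lines, predicted genes with provisional symbols left out, with CPM on a log axis and 1 symbol per line. COX1 lies between 34646 and 39679.5 CPM, and Bsg shows 1 line, SNU-6621-TO, far to the left of the other lines.

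Per unit of length the order changed. Mitochondrial transcripts filled the first places in TPM, with COX1 at 55759.5 TPM and ATP6, a subunit of ATP synthase, at 20107 TPM. Ftl1, the light chain of the iron store ferritin, had 5536 TPM but 2276 CPM, while Ahnak, a very large scaffold protein, had 2647 CPM but 339 TPM. Krt19 reached 4463 TPM, Krt8 3261 TPM, Krt18 3003 TPM and Krt7 1369.7 TPM, beside 2426 TPM for Ldha and 2661 TPM for Gapdh. Lama5, the laminin chain that epithelia lay down in their basement membrane, had 2198 CPM ± 129 (SD, n = 4) and stood at 454 TPM.

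The most abundant genes varied between lines to different degrees. Among the 100 genes of highest CPM, 51 had a highest-to-lowest ratio of at most 1.5, and 6 had one above 4. Over all 8718 present genes, the shares were 66.5% and 2.97%. The most abundant genes were thus not steadier than present genes in general. The steadiest was Actb, cytoplasmic actin, at 1601, 1598, 1535 and 1545 CPM, a ratio of 1.04. The 6 genes above 4 were Bsg, Sprr2a1, Sprr2a2, Pgap1, Car2 and Aqp5, and each had its lowest value in SNU-6621-TO. Bsg, or basigin, the partner protein of lactate transporters, had 1332, 8073, 7641 and 7319 CPM. Aqp5, a water channel of secretory ducts, had 168, 1122, 1365 and 1178 CPM. Car2, a carbonic anhydrase, had 207, 1142, 1106 and 1304 CPM. In each case SNU-6621-TO was low and the other lines were near each other. Sprr2a1 and Sprr2a2, cornified envelope genes with near-identical copies, had 586, 2112, 3508 and 2126 CPM and 596, 2255, 3779 and 2201 CPM, and how the counting divided reads between such copies is uncertain. Going the other way, Gsto1, a glutathione transferase, had 3199, 1398, 1885 and 1009.7 CPM, with SNU-6621-TO highest and SNU-6625-TO lowest.

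The label was then set against 17 lists of cell type markers, 301 genes in all, of which 64 were present in every line, and a few genes stand in more than 1 list. The list shares below are read against the 36.1% of genes with a count and the 38.6% of protein-coding genes that were present in every line. The biliary and progenitor list was the fullest, with 19 of 30 genes. The mature hepatocyte list had 1 of 40. The levels therefore went against the hepatocellular part of the label, and the cultures are called parental organoids here, with no other cell type name. In bulk RNA, fewer cells of a type and less RNA per cell cannot be told apart.

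**Figure D2:**
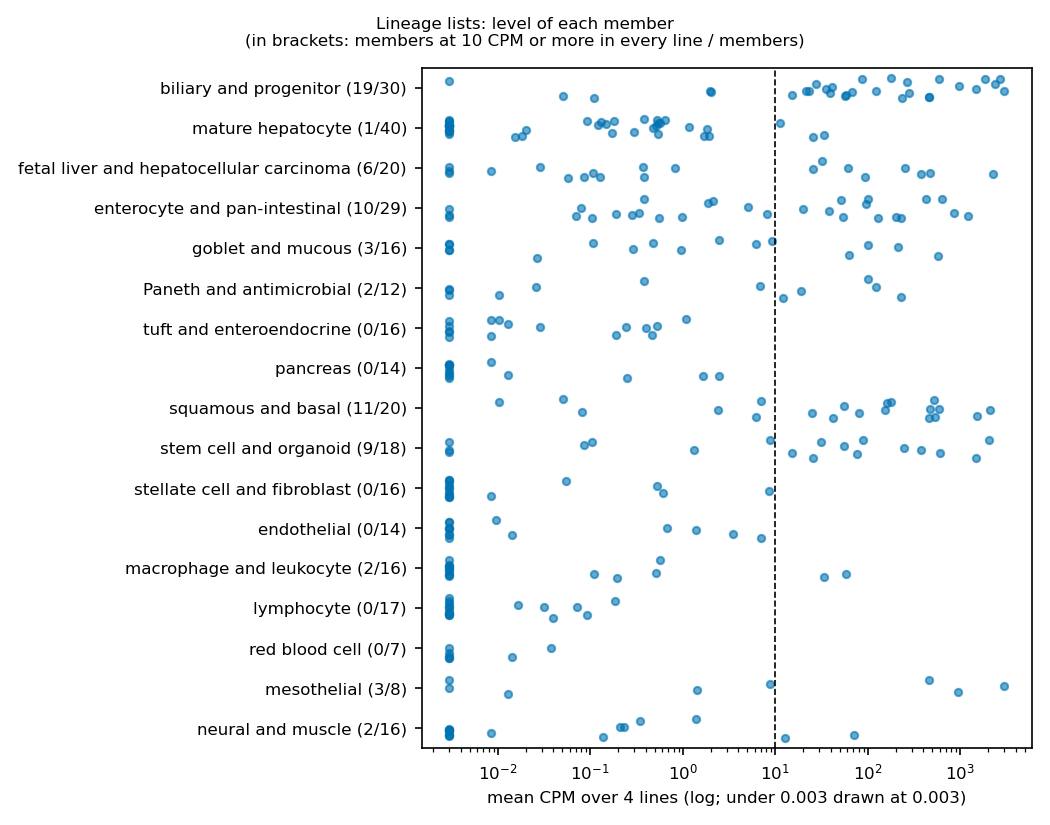
Mean CPM over the 4 parental lines, on a log axis, for every member of 17 lineage lists, with 1 point per gene and a dashed line at 10 CPM. Brackets give the members present in every line: 19 of 30 biliary and progenitor genes and 1 of 40 mature hepatocyte genes.

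Keratins led the biliary and progenitor list. Krt19, which marks cholangiocytes in the liver (11:100140810-100145926, GRCm38), had 2789.8, 3181, 2909 and 3079 CPM, a ratio of 1.14. Its partner Krt7 had 2498, 2663, 2323 and 2039.6 CPM. Krt8 and Krt18, the pair of all simple epithelia, hepatocytes included, had 2716 CPM ± 681 (SD, n = 4) and 1836 CPM ± 332 (SD, n = 4). The 4 lines thus held Krt19 and Krt7 within narrow bounds. Epcam, a surface protein of ducts and progenitors that mature hepatocytes lack, had 411, 595, 374 and 476 CPM, and Prom1, or CD133, had 1872, 1483, 1119 and 1397 CPM. Cftr, the chloride channel of duct cells, had 61.3, 126, 38.9 and 124 CPM, higher in SNU-6622-TO and SNU-6625-TO. Cldn4 and Cldn7, tight junction proteins, had 278 CPM ± 57.6 (SD, n = 4) and 265 CPM ± 23.3 (SD, n = 4). The list's median was 77.9 CPM, against 3.28 CPM over all protein-coding genes. Its summed level, Krt8 and Krt18 included, was 15417 CPM ± 1135 (SD, n = 4).

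The 11 duct or progenitor genes that missed the threshold were uneven between lines or near 0. Spp1, or osteopontin, had 134, 9.53, 3.49 and 11.1 CPM and Muc1, a membrane mucin, had 175, 38.6, 6.72 and 4.67 CPM. SNU-6621-TO was the highest line for both. Sox9, the duct factor, ran the other way at 4.30, 10.7, 32.4 and 45.8 CPM. The secretin receptor Sctr was at 0 in every line, and Ggt1, a glutamyl transferase of the bile duct surface, averaged 0.11 CPM. Leaving out a line can only keep or raise the number present. It was 20 of the 30 genes without SNU-6621-TO, 21 without SNU-6624-TO and 19 without SNU-6622-TO or SNU-6625-TO.

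Most hepatocyte products on the list were near absent. Alb, or albumin, had no count in any library. Fibrinogen genes Fgb and Fgg, the antitrypsins Serpina1a and Serpina1b, the urea cycle entry enzyme Cps1, the bile acid enzymes Cyp7a1 and Cyp8b1 and the bile acid importer Slc10a1 were also at 0 in all 4 lines. In all, 17 of the 40 genes had at most 3 counts in each library, and 15 of these were at 0 throughout. Ttr, the thyroid hormone carrier, had 0.440, 0.102, 0.0662 and 1.45 CPM, and Apoa1, the main protein of HDL, had 0.180 CPM on average. Ass1, a urea cycle enzyme also used outside the liver, was the only member present in every line, at 71.8, 18.8, 23.6 and 18.8 CPM. Glul, or glutamine synthetase, had 73.3, 10, 2.62 and 15.4 CPM, and Cyp2e1, which oxidises ethanol, had 45.3, 0, 0 and 0.122 CPM. SNU-6621-TO was the highest line for all 3 of these genes. The summed level of the list was 210.5, 35.7, 31.6 and 49.9 CPM. Its median of 0.126 CPM lay below the 3.28 CPM of protein-coding genes.

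Of 20 genes of fetal liver and of hepatocellular carcinoma, 6 were present in every line, or 30.0%, near the 36.1% of genes with a count. Afp, the fetal albumin relative used as a serum marker of this cancer, had a single line above 0 and averaged 0.00854 CPM, and Gpc3, another clinical marker, averaged 0.0572 CPM. H19 and Igf2, imprinted genes of the fetal liver, averaged 0.382 CPM and 0.368 CPM. The present members included Scd2, Ly6d, Cd44, Golm1 and Igf2bp2. Scd2, a fatty acid desaturase, had 1237, 1712, 2912 and 3267 CPM, higher in SNU-6624-TO and SNU-6625-TO than in the other lines. Golm1, a Golgi protein, had 185, 319, 232 and 274 CPM.

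Of 29 intestinal epithelial genes, 10 were present in every line, or 34.5%, a share near that of all genes with a count. Lgals4, a galectin of the gut lining, had 726, 1548, 901 and 1657 CPM. Cdh17, the cadherin of liver and intestine, had 318, 928, 526 and 776 CPM. Vil1, or villin, which bundles actin in microvilli and is also made by bile duct cells, had 83.6, 268, 211 and 358 CPM. Gpa33, an antigen of gut epithelium, had 74.8, 332, 156 and 252 CPM. For Vil1, Gpa33, Cdh17 and Lgals4 the lowest line was SNU-6621-TO, whereas Krt20, a keratin of differentiated gut cells, was highest there, at 758, 471, 183 and 306 CPM. Muc13, a membrane mucin, was highest in SNU-6622-TO, at 251, 1819, 447 and 867 CPM.

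Several genes of absorption in the mature gut were at or near 0. Sucrase-isomaltase, Sis, averaged 0.284 CPM, lactase, Lct, 0.0792 CPM, the fatty acid binders Fabp1 and Fabp2 0.554 CPM and 2.13 CPM, and Cdx1 was at 0. Other members of the list were higher. Car1 had 62.7, 125, 1.42 and 26.3 CPM and Ces2a had 11.5, 8.70, 3.18 and 183 CPM. Cdhr5, present in every line, had 95.5, 143, 45.9 and 119 CPM. Surface and cytoskeletal genes made up most of the present members of the list. Its median was 5.09 CPM.

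Secretory gut genes were uneven. Fcgbp, which binds mucus, Muc5b and Muc5ac were the 3 of 16 goblet and mucous genes present in every line. Fcgbp had 306, 1023, 302 and 676 CPM. Muc5b, a gel-forming mucin of airway and bile duct glands, had 740.0, 54.1, 38.6 and 11.1 CPM, almost all of it in SNU-6621-TO. Muc2, the mucin of gut goblet cells, averaged 2.47 CPM. Of 12 Paneth and antimicrobial genes, Pigr, the receptor that carries IgA across epithelia, and Saa1, an acute phase protein, were present in every line, at 407, 377, 41.5 and 93.9 CPM and 11.0, 297, 48.2 and 50.5 CPM. Lyz1, the Paneth cell lysozyme, averaged 0.0256 CPM. Of 16 tuft and enteroendocrine genes and of 14 pancreas genes, none was present in every line, and the highest of these averaged 2.47 CPM, for the pancreatic lipase Cel.

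Genes of stratified epithelium were present in the same libraries, 11 of 20. Krt4, a keratin of non-cornified stratified epithelium, had 1266, 1654, 1687 and 1398 CPM. Dsp, the desmosome plaque protein, had 455, 634, 736 and 548 CPM. Ivl, or involucrin, had 48.8, 72.5, 47.1 and 55.7 CPM. Between lines, these 3 had ratios of 1.33 to 1.62. The basal cell genes Krt5 and Trp63 were highest in SNU-6621-TO, at 160.4, 0.649, 5.68 and 1.22 CPM and 77.6, 7.91, 12.8 and 1.49 CPM. Krt14, the partner of Krt5, was highest in SNU-6624-TO, at 8.30, 2.1, 13.3 and 0.939 CPM, and Krt16 had 12.8, 2.44, 12.0 and 1.14 CPM. Krt84, a hair and nail keratin, had 1814, 19.7, 1.01 and 0.428 CPM. Ly6d, a small surface protein, was low in SNU-6621-TO alone, at 29.3, 672, 613 and 566 CPM.

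Of the 18 stem cell and organoid genes, 9 were present in every line. Ly6a, a surface protein of regenerating epithelium in the mouse, had 945, 3280.5, 2053 and 1879 CPM. Cd44, the hyaluronan receptor, had 463, 187, 431 and 441 CPM. Lgr5, the Wnt-dependent stem cell receptor, had 1.72, 9.89, 16.7 and 73.1 CPM, and Axin2, a Wnt target, had 2.37, 18.6, 44.3 and 60.7 CPM. For both genes SNU-6621-TO was lowest and SNU-6625-TO highest. Lgr4, the related receptor, was present in every line, at 46.8, 77.2, 70.8 and 109 CPM. Olfm4, Ascl2 and Smoc2, further intestinal stem cell genes, averaged 0.105 CPM, 0.0860 CPM and 0 CPM.

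Markers of cells other than epithelium were mostly at or near 0. No gene of the 16 stellate cell and fibroblast, 14 endothelial, 17 lymphocyte or 7 red blood cell markers was present in every line. Ptprc (CD45), Pecam1, Cdh5, Acta2 and Reln were at 0 in all 4 lines, and Col1a1 averaged 0.521 CPM. Vim, or vimentin, had 2.29, 0.137, 0 and 0 CPM. Lrat, the retinol esterase of stellate cells, was the highest of the fibroblast list at 23.7, 6.42, 2.72 and 1.20 CPM, and only SNU-6621-TO passed 10 CPM for it. The summed level of the stellate and fibroblast list was 26.1, 7.06, 3.28 and 2.35 CPM. Of 16 macrophage and leukocyte markers 10 were at 0 throughout, and Cd14 and Cd68, the only members present in every line, had 53.6, 105, 38.2 and 33.3 CPM and 25.4, 57.3, 28.1 and 24.0 CPM. Of 8 mesothelial markers 3 were present in every line, namely Msln at 609, 942, 1041 and 1198 CPM, Cav1 at 459.8 CPM ± 151 (SD, n = 4) and Krt19. The neural and muscle list had 2 of 16, Mbp at 71.1 CPM ± 8.76 (SD, n = 4) and Tnnt2 at 12.8 CPM ± 1.92 (SD, n = 4).

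Of 30 cell cycle genes, 23 were present in every line, and 14 at a threshold of 20 CPM. Ccnd1, cyclin D1, had 1414, 719, 1053 and 700.0 CPM and Ccnd2 had 849, 225, 434 and 266 CPM, both highest in SNU-6621-TO. Mki67, or Ki-67, had 55.4, 72.5, 211 and 233 CPM and Top2a, the mitotic topoisomerase, 59.5, 69.1, 138 and 163 CPM, both about equal in SNU-6621-TO and SNU-6622-TO and higher in the other lines. All 20 housekeeping genes were present in every line, with a median highest-to-lowest ratio of 1.37. The largest were Tfrc, the transferrin receptor, at 7.41, and B2m, a chain of MHC class I, at 5.53.

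Of 737 transcription factors with a matched gene, 248 were present in every line, or 33.6%, which lies near the 38.6% of protein-coding genes. A further 434 reached 10 CPM in no line, and 18, 16 and 21 did so in 1, 2 and 3 lines. Over all listed genes, 815, 480 and 510 reached it in exactly 1, 2 and 3 lines, beside 8718 in all 4. Presence was therefore mostly shared, among factors much as among all genes. Without SNU-6621-TO the number of factors was 258, and with another line left out it was 251 or 252.

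**Figure D3:**
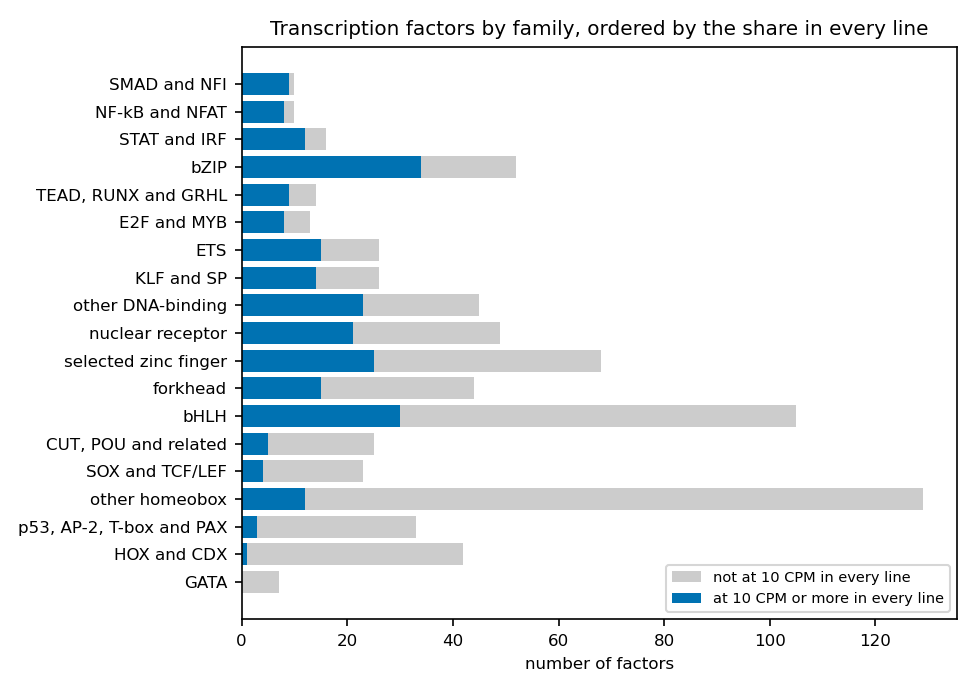
Transcription factors by DNA-binding family in the 4 parental lines: bars give the number listed and the number at 10 CPM or more in every line. SMAD and NFI factors were present for 9 of 10 members, HOX and CDX factors for 1 of 42.

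Families differed in how many members were present. The highest shares in every line were 9 of 10 SMAD and NFI factors, 8 of 10 NF-kB and NFAT factors, 12 of 16 STAT and IRF factors and 34 of 52 bZIP factors. Nuclear receptors had 21 of 49, forkhead factors 15 of 44 and SOX and TCF/LEF factors 4 of 23. The lowest shares were 12 of 129 other homeobox genes, 3 of 33 p53, AP-2, T-box and PAX genes, 0 of 7 GATA genes and 1 of 42 HOX and CDX genes. The 39 HOX genes, which set position along the body axis, all stayed under 10 CPM in every line, and 37 had at most 3 counts in each. The highest was Hoxa13, a gene of the hindgut and limb end, with a top value of 4.70 CPM. Cdx2 was thus the only present member of its family.

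The factors with the most counts were immediate early genes, which cells switch on within minutes of a stimulus. Fos, a subunit of the AP-1 dimer, had 1279.8, 1288, 1558 and 1546 CPM. Fosb had 1768, 946, 1169 and 910.2 CPM. Egr1, a zinc finger factor of the same response, had 1099, 748, 838 and 711 CPM, and Atf3, a stress-induced bZIP factor, 776, 478, 625 and 441 CPM. Fosb, Egr1 and Atf3 were highest in SNU-6621-TO. The AP-1 partners Jun, Jund and Junb had 415 CPM ± 132 (SD, n = 4), 420.2 CPM ± 64.2 (SD, n = 4) and 320.0 CPM ± 54.3 (SD, n = 4). Per length Fos was also the first of these, at 1580.0 TPM, followed by Fosb at 748 TPM, Atf3 at 635 TPM and Jund at 592 TPM. The 14 AP-1, EGR and NR4A genes together took 0.581% ± 0.0905 (SD, n = 4) of the counts. How the cultures were handled before lysis is not given in the sources used here, and its part in these levels was not tested.

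Epithelial and metabolic factors were also among those with many counts. Klf4, a factor of differentiating epithelium, had 472, 413, 432 and 460.3 CPM, a ratio of 1.14. Klf6 had 499 CPM ± 99.3 (SD, n = 4). Tfcp2l1, a grainyhead relative of kidney and salivary ducts, had 179.8, 494, 561 and 339.9 CPM, lowest in SNU-6621-TO. Srebf2, which drives cholesterol synthesis genes, had 274, 336, 348 and 344 CPM. Atf4, the factor of the amino acid response, had 315 CPM ± 33.5 (SD, n = 4), and Nfe2l2 (NRF2), the factor of the oxidant response, 287 CPM ± 44.7 (SD, n = 4).

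A TATA box, the element that fixes the start site of strongly inducible genes, is a feature that the choice by level did not use. TATAAA was searched on the sense strand from 40 to 20 bases before each RefSeq start (GRCm38.p6). It was found in 5 of 287 promoters of the 248 factors, or 1.74% (95% Wilson interval 0.746% to 4.01%), for 194 factors with an entry, against 1.91% of all 32851 promoters. The windows of Fos, the factor with most counts, and Cebpa, a liver factor that differed much between lines, are shown because both hold the motif and both lie just before the annotated gene. They give the 50 bases before the start, 5′ to 3′ on the gene's strand, with TATAAA in capitals, at chr12:85473840-85473889 and chr7:35119243-35119292, both on the plus strand.
Fos: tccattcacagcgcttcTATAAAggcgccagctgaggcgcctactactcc
Cebpa: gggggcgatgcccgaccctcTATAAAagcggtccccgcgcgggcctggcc
Among the 100 most abundant nuclear genes, of which 71 had an entry, TATAAA was in 2 of 88 promoters (2.27%, 95% Wilson interval 0.625% to 7.91%). CCAAT, searched on both strands from 120 to 40 bases before the start, was in 18.2% of the 88 (11.5% to 27.5%) and in 16.4% of all promoters. For both motifs the interval of the 88 promoters held the share of all promoters. The TATAAA share depended on how many genes were taken. It was 4.44% (1.23% to 14.8%) for the 50 most abundant. For the 200 most abundant it was 4.40% (2.24% to 8.43%), or 8 of 182 promoters. The latter interval lay above the 1.91% of all promoters but held the 2.46% of protein-coding promoters, so the reading depends on the background taken. Over the 8896 promoters of genes present in every line, TATAAA was in 0.899% (0.723% to 1.12%), against 2.46% of 21296 protein-coding promoters. CCAAT was in 19.4% (18.6% to 20.2%) against 18.4%. A match is a string of letters and not a measured site, and the intervals cover counting error only.

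Of the liver factors, 4 of 16 were present in every line: Hnf4a, Foxa1, Cebpa and Atf5. This count and those of the other roles below are read against the 33.6% of all 737 factors present in every line. The liver and intestinal shares lay somewhat below it, and the duct and epithelial shares above it. Each role group is small. Hnf4a, the nuclear receptor that hepatocytes and gut cells both need (2:163506811-163572907, GRCm38), had 91.0, 129, 91.0 and 149 CPM, at 62.0 TPM per length. The lines differed by a ratio of 1.64, with SNU-6625-TO highest. Foxa1, a pioneer factor of endoderm, had 48.2, 63.2, 64.5 and 70.1 CPM. Its relative Foxa2 had 13.7, 11.0, 1.67 and 3.86 CPM, above 10 CPM in SNU-6621-TO and SNU-6622-TO, and Foxa3 averaged 0.0382 CPM. Cebpa had 111, 32.0, 23.9 and 14.2 CPM, a ratio of 7.79, highest in SNU-6621-TO.

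The other 12 missed the threshold in at least 1 line. Tbx3, a factor of hepatocyte precursors, had 1.97, 16.0, 3.91 and 12.8 CPM and passed 10 CPM in SNU-6622-TO and SNU-6625-TO. Nr1h4 (FXR), the bile acid receptor, averaged 1.90 CPM, Ppara, which controls fatty acid oxidation in hepatocytes, 1.26 CPM, and Prox1 0.137 CPM. The drug receptor Nr1i3 (CAR) and the FXR target Nr0b2 (SHP) were at 0 in every line.

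**Figure D4:**
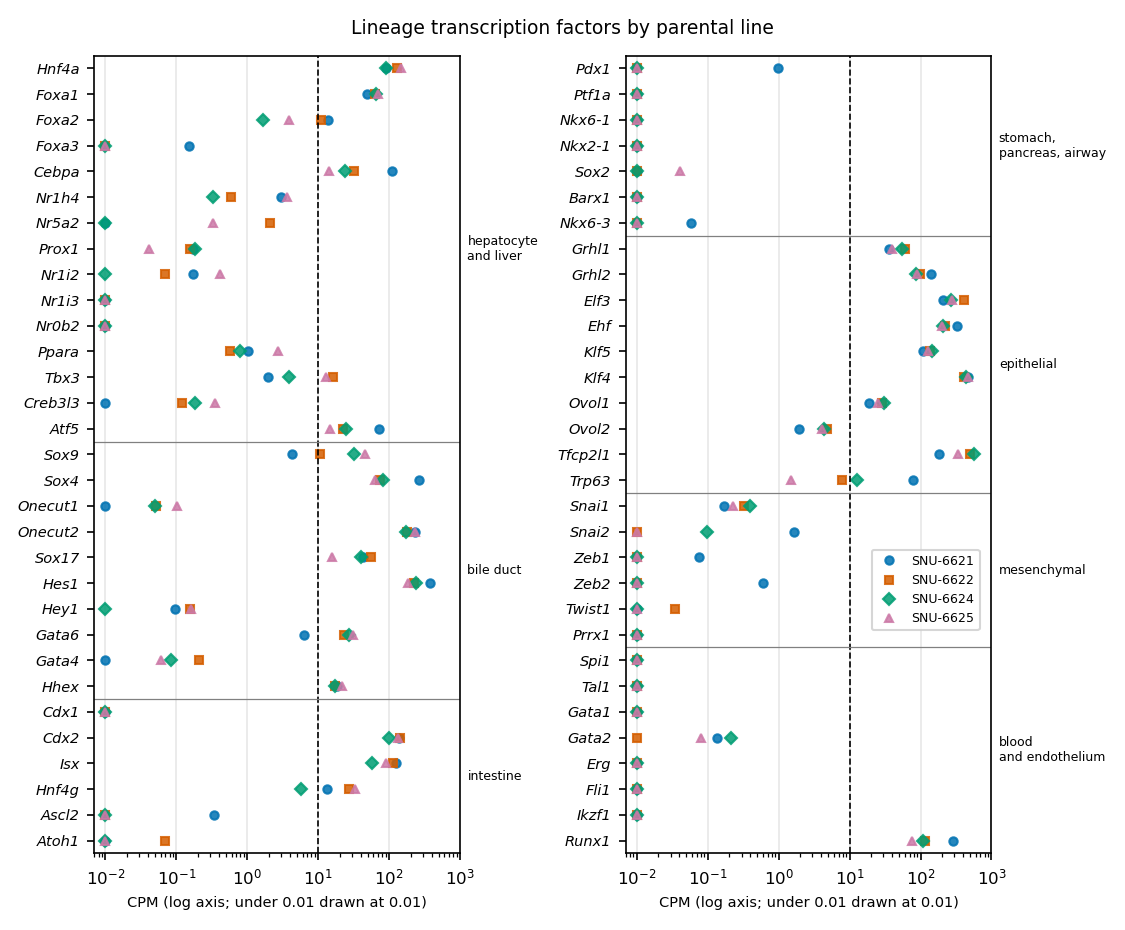
CPM on a log axis of 62 lineage transcription factors in the 4 parental lines, grouped by role, with a dashed line at 10 CPM and values under 0.01 drawn at 0.01. Hnf4a, Onecut2, Cdx2 and Isx lie to the right of the dashed line in each parental line, while mesenchymal and most blood factors lie to the left of it.

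Duct factors were present for 6 of 11, among them Sox4, Onecut2, Sox17, Hes1 and Hhex. Sox4, which acts with Sox9 in duct formation, had 259.6, 74.4, 81.6 and 62.7 CPM. SNU-6621-TO was high and the other lines were near each other. Onecut2 had 227, 177, 171 and 232 CPM, while Onecut1 (HNF6) averaged 0.0507 CPM. Hes1, a Notch target, had 377, 224, 239 and 183 CPM, and Hhex, a factor of early liver and duct, 18.2, 17.2, 17.0 and 21.4 CPM, nearly equal in all 4. Gata6, of early endoderm, missed the threshold in SNU-6621-TO alone, at 6.23, 22.9, 26.8 and 30.8 CPM.

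The 2 of 7 intestinal factors present in every line were Cdx2 and Isx. Cdx2 (5:147300900-147307249, GRCm38) had 139, 142, 98.0 and 134 CPM, a ratio of 1.45. Isx, an intestine-restricted homeobox factor that curbs vitamin A processing, had 125, 115, 56.8 and 89.4 CPM, lowest in SNU-6624-TO. Per length Cdx2 stood at 134 TPM and Isx at 127 TPM, against 62.0 TPM for Hnf4a. Hnf4g, the gut relative of Hnf4a, had 13.1, 27.5, 5.66 and 33.3 CPM. Atoh1, which specifies secretory gut cells, had counts in 1 line alone, at a mean of 0.0171 CPM, and the pancreas factor Pdx1 was above 0 only in SNU-6621-TO.

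Epithelial factors were present for 8 of 10. Elf3 and Ehf, ETS factors of epithelia, had 209.8, 408, 269.6 and 275 CPM and 329.5, 221, 209 and 199 CPM. Grhl2, which holds epithelial junction genes, had 139.8, 98.2, 85.4 and 89.9 CPM, and Klf5, of proliferating epithelium, 107, 135, 147 and 129 CPM. All 4 of these stayed within a ratio of 1.94. None of 6 mesenchymal factors was present: Prrx1 was at 0, and Zeb1, Twist1 and Snai1 averaged 0.0191 CPM, 0.00854 CPM and 0.280 CPM. Of 8 blood and endothelial factors only Runx1, which epithelia also make, was present, at 288, 118, 108 and 76.3 CPM. Spi1, Tal1, Gata1, Erg, Fli1 and Ikzf1 had no count in any library.

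Between lines, the present factors had a median highest-to-lowest ratio of 1.46, with a middle range of 1.25 to 1.81. The same median over all 8718 present genes was 1.35. A ratio of at most 1.5 was found for 132 of the 248 factors (53.2%) and for 66.5% of all present genes. Without SNU-6621-TO the medians were 1.23 for 258 factors and 1.19 for all genes. With another line left out they were 1.37 to 1.40 for factors and 1.29 to 1.31 for all genes. For a given gene, a ratio over fewer lines can only stay or fall. SNU-6621-TO was the highest line for 44.4% of the factors and the lowest for 33.1%, near its 40.7% and 32.3% over all 8718 present genes. SNU-6625-TO was the lowest line for 31.9% of the factors and for 24.0% of all present genes. Across the 248 factors, the Pearson correlation of log2 CPM was 0.844 to 0.872 for pairs with SNU-6621-TO and 0.938 to 0.972 for the other pairs, as a description over factors measured in the same libraries.

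The 5 factors with the largest ratio were Stat5a, Cebpa, Irf7, Stat2 and Pparg. Stat5a, a cytokine and growth hormone signal factor, had 13.5, 76.6, 113 and 88.7 CPM, low in SNU-6621-TO. Pparg, the nuclear receptor of fat storage, had 19.3, 116, 90.9 and 98.9 CPM, with the same line low. Irf7 and Stat2, factors of the interferon response, had 94.2, 589, 114 and 84.1 CPM and 26.9, 175, 55.1 and 48.8 CPM, both high in SNU-6622-TO. The 12 present STAT and IRF factors had a median ratio of 2.48, above the 1.46 of all present factors. They were not alone in this. The 4 present SOX and TCF/LEF factors had 2.79, and the 3 present p53, AP-2, T-box and PAX factors 2.43.

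The steadiest factors were Yy1, Arnt, Nfatc3, E2f3 and Hsf1. Yy1, a broadly used factor, had 147, 146, 147 and 138 CPM, a ratio of 1.07. Arnt, the partner of the hypoxia and dioxin receptors, had 81.9, 85.5, 87.9 and 85.1 CPM. Hsf1, which controls heat shock genes, had 53.7, 52.9, 53.8 and 49.1 CPM. Each of the 5 had a ratio of at most 1.10. Just inside the threshold by their lowest line lay Foxm1, Tfeb, Fosl1, Pax9 and Tfcp2, from 10.3 CPM to 11.5 CPM. Just outside lay Cebpd, Homez, Mxd4, Tfap4 and Tead4, from 9.84 CPM down to 9.27 CPM.

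**Figure D5:**
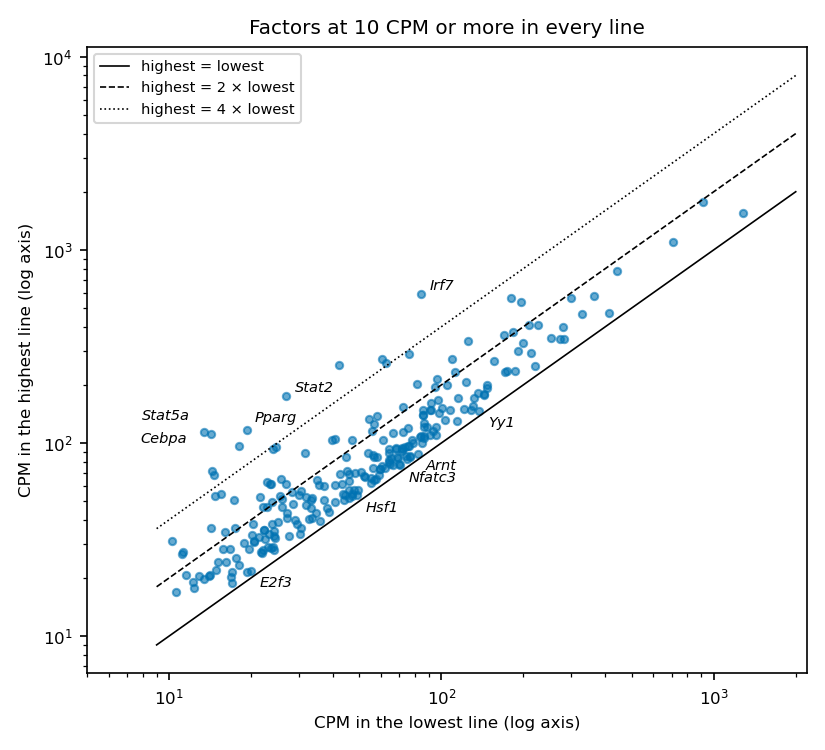
Each of the 248 present factors by its CPM in the lowest and in the highest of the 4 parental lines, both on log axes, with lines for a ratio of 1, 2 and 4. Most points lie between the first and the second line, and Irf7, Stat5a, Cebpa, Stat2 and Pparg lie above a ratio of 4.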

How the data were processed

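RNA was measured in 8 mouse organoid libraries, of which the 4 parental ones were used. Per the labels' protocols, RNA was taken with Trizol and an RNeasy kit and libraries were made with the TruSeq Stranded mRNA kit. Per the submitters' processing notes, reads were handled with HISAT2 (2.1.0) and StringTie (2.1.3b) on mm10, and Trimmomatic (0.38), Bowtie2 (2.3.4.1) and FastQC (0.11.7) are also listed. For the counting step and its strand setting nothing is given in the sources used here, and reads of overlapping genes may be shared. The authors deposited whole-number counts for 45777 genes per library. A poly(A) kit underrepresents messages without a tail.

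CPM was computed here as counts over the library total. TPM used union-exon lengths of GENCODE M21 for 22248 genes, which held 97.5% to 97.7% of the counts, and positions came from RefSeq (GRCm38.p6). Promoters came from RefSeq. TMM factors came from edgeR 4.0.16 in R 4.3.3, and tables were made with Python 3.11.15, pandas 2.3.3 and numpy 2.4.6. The presence rule was tested on simulated data. No pair of libraries held identical counts.

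Named genes were the 25 highest by mean CPM and the 10 highest per length, the highest and the first members of each list, 65 lineage factors, and the 20 highest, 5 most and 5 least variable factors, with 5 on each side of the threshold. Other genes named were chosen after their values were seen, and predicted genes with provisional symbols were left out. Some listed genes and 1 planned promoter motif are not reported here. The members and lists were chosen with earlier results of these data known. No differential test was made, since each line has 1 library, and Dixon's ratio was used only to pick out lines far from the others. The alternatives were TMM scaling, mitochondrial genes left out, thresholds of 5 and 20 CPM, TPM, other numbers of top genes and leaving out each line.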

Additional observations from a re-analysis of the deposited data

Results flagged for a closer look

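Dixon's ratio divides the gap between the most distant line and the line nearest to it by the full range of the 4 lines. It was set against its 95% critical value for 81 named genes that reached 1 CPM in a line. Of these, 9 had 1 line set apart, 5 of them with SNU-6621-TO, 3 with SNU-6622-TO and 1 with SNU-6625-TO. Chance sets apart about 1 in 20 groups of independent values, but some of these genes were chosen by their spread between the same lines and all share the same libraries, so the number set apart cannot be read against that rate.

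SNU-6621-TO was set apart as low for the basigin gene Bsg, at 1332 CPM against 7319 to 8073 CPM in the other lines, and for the sterol factor Srebf2, at 274 CPM against 336 to 348 CPM. The same line was set apart as high for the duct factor Sox4, at 259.6 CPM against 62.7 to 81.6 CPM. It was also high for the basal cell factor Trp63, at 77.6 CPM against 1.49 to 12.8 CPM, and for Snai2, at 1.66 CPM against 0 to 0.0993 CPM.

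SNU-6622-TO was set apart as high for Ly6e, an interferon-induced surface protein, at 3306 CPM against 2099 to 2279 CPM. It was also high for the interferon factor Irf7, at 589 CPM against 84.1 to 114 CPM, and for the liver factor Nr5a2, at 2.12 CPM against 0 to 0.327 CPM. SNU-6625-TO was low for Yy1, at 138 CPM against 146 to 147 CPM, a small distance in a gene that otherwise hardly varied.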

How the results depend on the processing

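With 1 library per line the levels have no replicate error within a line, and depth limits only the lowest genes. No paired analysis was possible because each line has 1 parental library and no groups are compared. Of the alternative values for the main counts and shares, 68 stayed within the limits set for no change and 8 moved. The 20 most abundant genes held 11.9% of counts, but 6.78% with mitochondrially encoded genes left out and 22.8% in TPM. The 10 most abundant held 8.93% and the 50 most abundant 17.3%. The mature hepatocyte list had 1 gene present in every line, 0 at a threshold of 20 CPM and 2 without SNU-6624-TO, where Glul was added, so leaving out 1 line gave 1 to 2. The median ratio of transcription factors between lines was 1.46 and ranged from 1.23 (without SNU-6621-TO) to 1.40 with 1 line left out. The number of factors present in every line was 248, or 248 with TMM scaling, 278 at 5 CPM, 211 at 20 CPM and 211 at 10 TPM. For all genes the range was 6832 to 10039. Of further values for single lists and genes, 140 stayed within those limits and 4 moved: at 20 CPM the cell cycle list had 14 members in place of 23, the Paneth and antimicrobial list 1 in place of 2 and the neural and muscle list 1 in place of 2, and at 10 TPM the Paneth and antimicrobial list had 4.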
